A study of Danio rerio with 6 samples.

Results

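The crystallin and lens fibre genes are the genes of the main structural proteins of the eye lens and of the membrane and cytoskeleton of its fibre cells. They were taken by symbol, as genes whose name starts with crya, cryb, cryg, lim2, bfsp, mipa or mipb and that had 10 or more counts summed over 6 libraries. Of 31452 genes listed, 60 had such a symbol and 55 of these reached the minimum. They comprise 2 alpha crystallins, 13 beta crystallins, 27 gamma M crystallins, 5 gamma N and gamma S crystallins, and 8 genes of the fibre membrane and beaded filament.

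RNA came from pools of 15 whole zebrafish embryos, collected 3 days after fertilisation. In 3 pools the embryos made human EWSR1-ERG, the fusion protein of an RNA-binding protein and an ETS transcription factor found in Ewing sarcoma, fused to GFP. It was placed under 14xUAS and driven by the Gal4-VP16 enhancer trap line s1101t, and expression was neuronal by the labels; the cross also carried the UAS:Kaede reporter s1999t. The other 3 pools were wild-type siblings that did not express EWSR1-ERG, and the labels name the same cross for them. The sources used here do not give whether these siblings carried the driver or the reporter. The pools are numbered as biological replicates, with no word on separate clutches, so the p-values measure only the spread among these pools.

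Lens fibres are long cells that lose their organelles and fill with crystallins, which give the lens its refractive power. Alpha crystallins are small heat shock proteins that keep other proteins in solution, while beta and gamma crystallins share a compact fold of Greek key motifs. Fishes have a large family of gamma M crystallins, rich in methionine, that suits the dense and hard fish lens. The products of mipa and mipb are aquaporins of the fibre membrane, those of the lim2 genes are fibre membrane proteins, and bfsp2 encodes phakinin, a subunit of the beaded filament. Since whole embryos were used, fewer lens fibre cells and less RNA per cell cannot be told apart.

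Library totals ran from 5611197 to 13338802 counts in EWSR1-ERG pools and from 4771843 to 5672149 counts in wild-type pools, and the deposited data of EWSR1-ERG replicate 3, the deepest library, carry another lane tag than those of the others. That lane holds 1 library, so no comparison within it was possible. Without that library 0 members were called higher and 1 lower. The fusion transgene is not among the genes listed, so its expression was not measured here. Levels below are CPM, counts scaled to a common library size, after scaling by trimmed mean of M values (TMM). They were not divided by transcript length and are compared between pools, not between genes. The quasi-likelihood test of edgeR was run on 17557 genes that passed a filter on low counts, and p-values were adjusted over all of them by the Benjamini-Hochberg method, with a threshold of 0.05. The test called 17.3% of genes, 7.46% higher and 9.87% lower in EWSR1-ERG pools.

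Lens crystallin RNA differed more among pools of the same kind than between EWSR1-ERG and wild-type embryos. Of 47 members tested, 1 was called lower and none higher, against the 17.3% of all genes called. The called gene was CRYGN (2 of 3), with a log2 fold change of -0.71. At an unadjusted p under 0.05 by edgeR stood 7 members, against 30.1% of all tested genes. DESeq2 called crygs3 higher and limma-voom bfsp2, and both called 1 member lower. The median log2 fold change was 0.010 over the tested members, beside 0.0047 over all tested genes. In 40 of the 47 the 95% interval of the log2 fold change lay between -1 and 1, and the share over all tested genes is not given here. The groups did not overlap in CPM for 3 members, CRYGN (2 of 3), crygs3 and crygs2, against 35.1% of all tested genes.

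**Figure D1:**
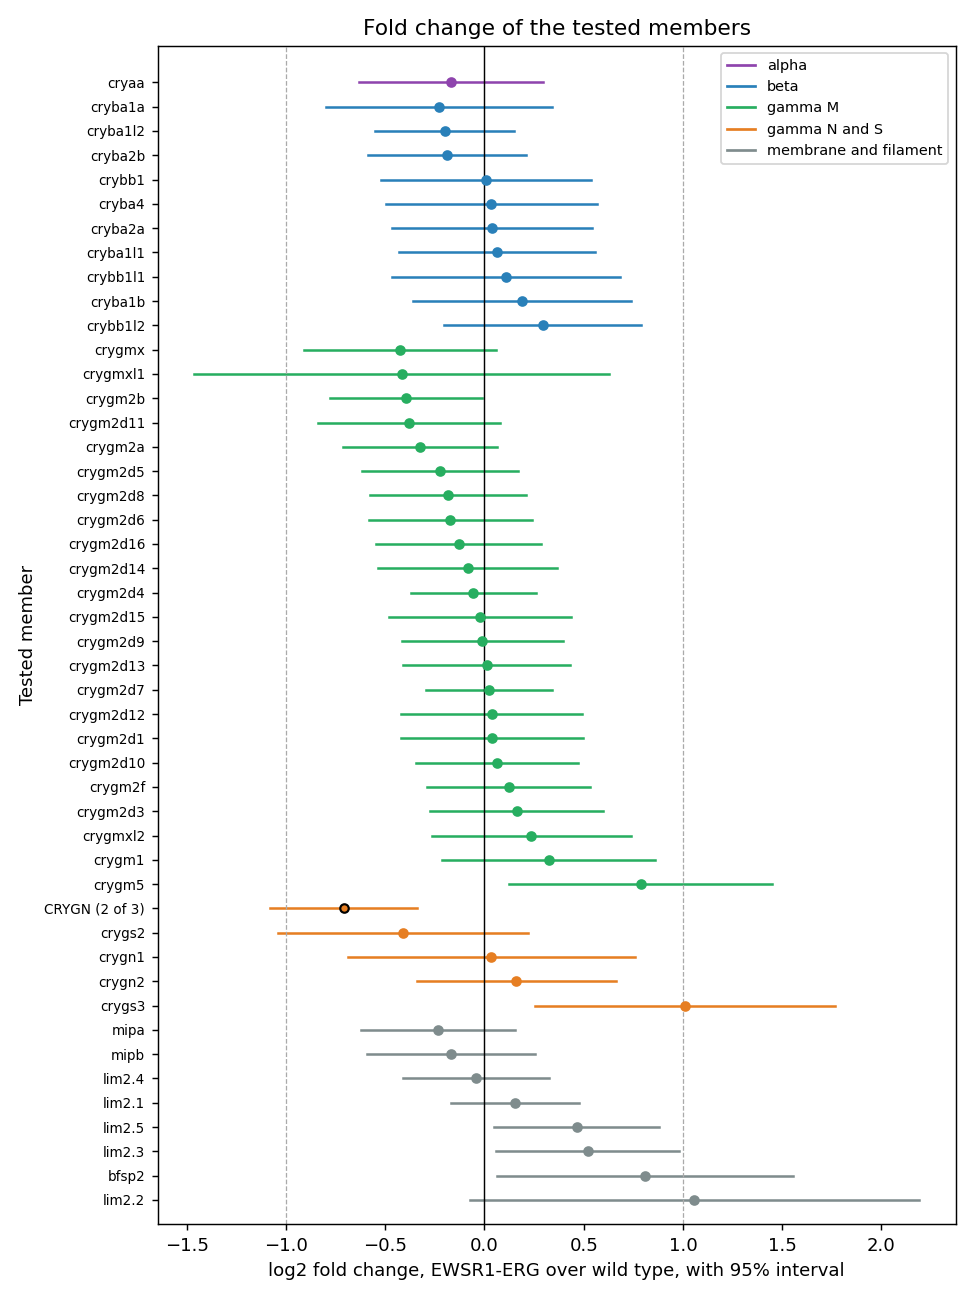
Log2 fold change of the 47 tested members, EWSR1-ERG over wild type, as points with 95% intervals as lines, coloured by class; the black ring marks the member called at an adjusted p under 0.05 and dashed lines stand at -1 and 1. The points of the beta and gamma M classes gather around 0, and the ringed point of CRYGN (2 of 3) stands at -0.71.

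Summed over all 47 members of the alpha, beta and gamma classes, tested or not, crystallins gave 14706, 10160 and 15066 CPM in EWSR1-ERG pools 1, 2 and 3, against 15016, 15212 and 9149 CPM in wild-type pools 1, 2 and 3. EWSR1-ERG replicate 2 and wild-type replicate 3 were thus low, and the other 4 pools lay close together. The count column of EWSR1-ERG replicate 2 has a damaged header, and its values were taken as that sample's from the GEO record of the file. Crystallins took 1.48%, 1.03% and 1.47% of the library counts in the EWSR1-ERG pools and 1.56%, 1.52% and 0.849% in the wild-type pools. These sums and shares leave out crystallin genes that the deposited data list under other names, described below. The group means were 13311 ± 2735 CPM and 13126 ± 3445 CPM (SD, n = 3 each).

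The dip was shared by nearly all members. Among the 39 members with a mean of 100 or more counts per library, all 39 were lowest within their group in EWSR1-ERG replicate 2 and all 39 in wild-type replicate 3. Over all 8434 tested genes of that count the shares were 33.2% and 35.8%. The ratio of EWSR1-ERG replicate 2 to the mean of the other 2 EWSR1-ERG pools had a median of 0.70 over these members (range 0.560 to 0.833), beside 0.986 over all such genes. For wild-type replicate 3 the median was 0.617 (range 0.463 to 0.835), beside 1.02 over all such genes. A ratio under 0.7 was found in wild-type replicate 3 for 34 of the 39 members and for 3.57% of all such genes. Members share the lens they come from, so these are not 39 independent observations, and a single library allows no test. Both pools were picked because the members' own sum was low there. That members were low in them more often than other genes was thus largely set in advance. The summed CPM of 20 photoreceptor genes of the neighbouring retina were 1176, 1361 and 1369 in EWSR1-ERG pools 1, 2 and 3, and 8147, 8611 and 8165 in wild-type pools 1, 2 and 3. Gene by gene, EWSR1-ERG replicate 2 was the lowest of its group in 3 of the 20 and wild-type replicate 3 in 12. The median ratios to the other pools of the group were 1.08 (range 0.849 to 1.35) and 0.959 (range 0.778 to 1.13).

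**Figure D2:**
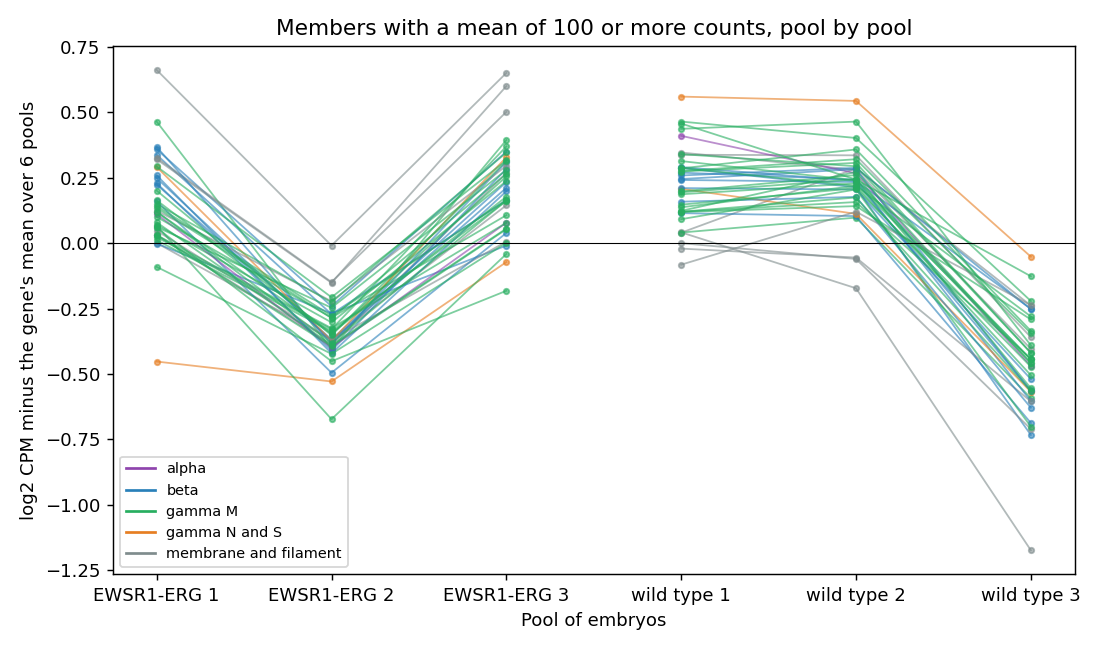
Log2 CPM of each of the 39 members with a mean of 100 or more counts, minus the gene's mean over 6 pools, in the 3 EWSR1-ERG and 3 wild-type pools; each line is a gene and colours mark the class. All 39 lines reach their group's lowest point in EWSR1-ERG replicate 2 and in wild-type replicate 3.

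The median coefficient of variation (CV) of the 39 members was 19.5% among EWSR1-ERG pools and 25.3% among wild-type pools, beside 9.87% and 9.38% over all tested genes of the same minimum count. Counting error alone would give the members medians of 2.03% and 2.42%. When each member's counts were divided by the summed crystallin counts of the same pool, the median CV was 5.78% in EWSR1-ERG and 3.94% in wild-type pools. The larger share of the spread was thus common to the members. Over all 47 tested members the median CV was 20.7% in EWSR1-ERG pools, against 5.45% without EWSR1-ERG replicate 2, and 25.98% in wild-type pools, against 3.14% without wild-type replicate 3. The pool left out was the low one each time, so a fall was set in advance. In EWSR1-ERG pools the median CV was 26.3% without replicate 1 and 24.4% without replicate 3. In wild-type pools it was 33.4% without replicate 1 and 32.6% without replicate 2. The lowest CVs, as the mean of both groups, were those of cryba1l2, with 10.2% and 19.4% in EWSR1-ERG and wild-type pools, and lim2.1, with 17.7% and 12.5%. The highest were those of bfsp2, with 24.3% and 38.9%, and crybb1l1, with 20.7% and 34.3%.

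Among the alpha crystallins, cryaa (ENSDARG00000053502, chromosome 1 of Zv9) encodes alpha A, the lens-specific chaperone of the family. It had 47.6, 33.4 and 46.5 CPM in EWSR1-ERG pools 1, 2 and 3, against 58.6, 53.0 and 31.9 CPM in wild-type pools 1, 2 and 3. The groups overlapped (log2 fold change -0.17, SE 0.209, edgeR adjusted p = 0.644). The gene of an alpha B crystallin, cryabb (chromosome 5), had 9, 13 and 21 counts in EWSR1-ERG pools and 5, 7 and 16 counts in wild-type pools, too few for the test. Its highest CPM was that of wild-type replicate 3, at 3.61 CPM, where cryaa was low. At so few counts its pattern over the pools is uncertain. The paralog cryaba had 0 counts in all 6 libraries, where a count of 0 allows up to 3 counts, or 0.230 to 0.678 CPM by library, for counting error only. It therefore fell outside the 55.

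Summed over its 13 members, the beta class gave 6817, 4341 and 6620 CPM in EWSR1-ERG pools 1, 2 and 3, against 6508, 6517 and 3766 CPM in wild-type pools 1, 2 and 3. The log2 ratio of the group means was 0.08, within the spread between pools. All 10 tested members missed the threshold, with log2 fold changes from -0.23 to 0.29, 7 of them above 0, and no adjusted p below 0.435. Beta crystallins form dimers and larger assemblies of acidic (A) and basic (B) subunits. The basic subunit gene crybb1 (chromosome 10) had 1425, 889 and 1366 CPM in EWSR1-ERG pools, against 1411, 1448 and 804 CPM in wild-type pools. Its log2 fold change was 0.0067 (SE 0.237, 95% interval -0.52 to 0.53, edgeR adjusted p = 0.991). For the acidic subunit gene cryba1b (chromosome 21) the values were 1101, 653 and 1058 CPM in EWSR1-ERG pools and 952, 965 and 552 CPM in wild-type pools (0.19, SE 0.245, adjusted p = 0.668). The member with the highest log2 fold change of the class, crybb1l2 (chromosome 1), had 1081, 713 and 1074 CPM in EWSR1-ERG pools and 913, 906 and 524 CPM in wild-type pools (0.29, SE 0.224, adjusted p = 0.435). In each of these 3 genes EWSR1-ERG replicate 2 lay between wild-type replicate 3 and the remaining pools.

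Of the remaining named beta genes, crybb1l1 (chromosome 14) had 617, 405 and 548 CPM in EWSR1-ERG pools and 596, 566 and 294 CPM in wild-type pools (0.11, SE 0.254, edgeR adjusted p = 0.829). The steadier cryba1l2 (chromosome 1), in which EWSR1-ERG replicate 2 and wild-type replicate 3 nearly met, had 18.5, 15.4 and 18.4 CPM in EWSR1-ERG pools and 22.7, 21.9 and 15.6 CPM in wild-type pools (-0.20, SE 0.162, adjusted p = 0.453). The 3 beta members left untested, crybb1l3, crybb2 and crybb3, had 52, 11 and 25 counts over the 6 libraries.

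**Figure D3:**
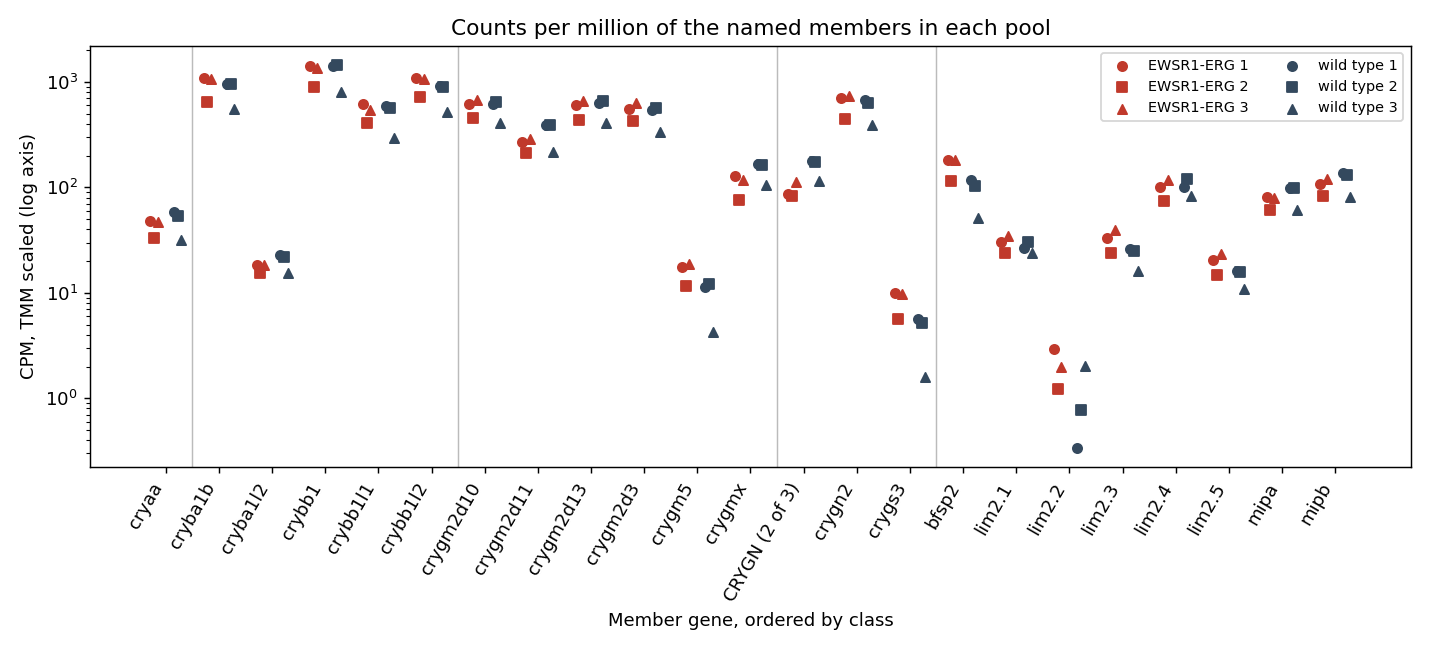
CPM of 23 tested members in each pool on a log axis, ordered by class with vertical lines between classes; red marks are EWSR1-ERG pools, dark marks wild-type pools, and the marker shape gives the replicate. In crybb1 the lowest values are those of EWSR1-ERG replicate 2, at 889 CPM, and wild-type replicate 3, at 804 CPM, while in lim2.2 wild-type replicate 3 is the highest of its group, at 2.03 CPM.

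The gamma M class, with 27 members of which 25 lie on chromosome 9, gave 7026, 5239.7 and 7540.2 CPM in EWSR1-ERG pools 1, 2 and 3, against 7588, 7828 and 4833 CPM in wild-type pools 1, 2 and 3. The log2 ratio of the means was -0.03. None of 23 tested members passed, and 10 had a log2 fold change above 0. The 15 genes named crygm2d ranged from -0.38 to 0.16 with a median of -0.02 and no adjusted p below 0.255. They are near-identical neighbours, and the sources used here do not give how reads shared between them were counted. Their separate values are therefore uncertain, whereas their sum depends less on how reads were split: 6259, 4725 and 6776 CPM in EWSR1-ERG pools, against 6860.4, 7064 and 4397 CPM in wild-type pools. Among them, crygm2d10 had 616, 460.0 and 674 CPM in EWSR1-ERG pools and 621, 649 and 404 CPM in wild-type pools (0.06, SE 0.186, edgeR adjusted p = 0.865). The values of crygm2d13 (0.01, adjusted p = 0.980) and crygm2d3 (0.16, adjusted p = 0.639) were 607, 440 and 667 CPM and 554, 427 and 635 CPM in EWSR1-ERG pools, against 636, 655 and 411 CPM and 543, 564 and 338 CPM in wild-type pools. The crygm2d sum leaves out further crygm2d genes that the deposited data list under other names, so reads shared with those can still affect it.

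The lowest p of the gamma M class belonged to crygm5 (chromosome 9), with 17.5, 11.5 and 18.9 CPM in EWSR1-ERG pools, against 11.3, 12.0 and 4.29 CPM in wild-type pools. Its log2 fold change was 0.79 (SE 0.301, edgeR adjusted p = 0.103). EWSR1-ERG replicate 2 overlapped the wild-type pools, and without it the value was 0.96 and passed (adjusted p = 0.0429). At the other end, crygmx (chromosome 12) had 128, 76.6 and 119 CPM in EWSR1-ERG pools and 169, 161 and 105 CPM in wild-type pools (-0.43, SE 0.216, adjusted p = 0.223). The values of crygm2d11 were 269, 213 and 286 CPM in EWSR1-ERG pools and 387, 395 and 218 CPM in wild-type pools (-0.38, SE 0.207, adjusted p = 0.255). Without wild-type replicate 3, crygmx stood at -0.60 (adjusted p = 0.0497) and crygm2d11 at -0.60 (adjusted p = 0.00631). Of the 14 settings crygm5, crygmx and crygm2d11 each passed in 1 only. Leaving out a low pool also shifted the median log2 fold change of the members. It was 0.154 without EWSR1-ERG replicate 2 and -0.175 without wild-type replicate 3, against 0.010 with all pools.

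Gamma N crystallins have features of both the beta and gamma families, and gamma S is the gamma crystallin found most widely among vertebrate lenses. In sum these 5 genes gave 815, 543 and 858 CPM in EWSR1-ERG pools 1, 2 and 3, against 860.2, 813 and 514 CPM in wild-type pools 1, 2 and 3 (log2 ratio of means 0.02). Their main contributor was crygn2 (chromosome 24), with 710.4, 448 and 729 CPM in EWSR1-ERG pools and 670.4, 627 and 391.7 CPM in wild-type pools (0.16, SE 0.225, edgeR adjusted p = 0.694).

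CRYGN (2 of 3) (ENSDARG00000036140, chromosome 7) was the only member of the 55 called in the comparison. The gene name table lists this identifier as crybgx, so its place among the gamma N genes rests on the symbol in the deposited data. It had 87.4, 82.9 and 114 CPM in EWSR1-ERG pools 1, 2 and 3, against 176, 174 and 115 CPM in wild-type pools 1, 2 and 3. All EWSR1-ERG pools were below all wild-type pools, although EWSR1-ERG replicate 3 and wild-type replicate 3 nearly met. Means were 94.7 ± 16.7 CPM and 155 ± 34.6 CPM (SD, n = 3 each; log2 fold change -0.71, SE 0.169, 95% interval -1.08 to -0.34, edgeR adjusted p = 0.0135). The call ended without EWSR1-ERG replicate 1 (-0.65, adjusted p = 0.0609), without wild-type replicate 1 (-0.61, adjusted p = 0.0692) and without wild-type replicate 2 (-0.62, adjusted p = 0.0647). Without wild-type replicate 3, the low pool, the value was -0.88 (adjusted p = 0.000912). Over the 14 alternative settings the adjusted p ran from 0.000912 to 0.0692, and 11 settings kept the call.

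The gamma S gene crygs3 (chromosome 9) had 9.95, 5.60 and 9.75 CPM in EWSR1-ERG pools, against 5.59, 5.23 and 1.58 CPM in wild-type pools. The groups were separated only by the difference between 5.60 and 5.59 CPM, and the log2 fold change of 1.01 (SE 0.347, edgeR adjusted p = 0.0664) missed the threshold. It passed without EWSR1-ERG replicate 2 (1.21, adjusted p = 0.0317), with no filter on low counts (adjusted p = 0.0448) and by DESeq2 (adjusted p = 0.0429), and its adjusted p over all 14 settings ran from 0.0317 to 0.167. The remaining members, crygs2 and crygn1, had log2 fold changes of -0.41 (adjusted p = 0.391) and 0.03 (adjusted p = 0.962), at 107 and 143 counts over all libraries.

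None of the 8 membrane and filament genes passed, and 5 had a log2 fold change above 0 (median 0.31). They summed to 558, 397 and 596 CPM in EWSR1-ERG pools 1, 2 and 3, against 524, 523 and 329 CPM in wild-type pools 1, 2 and 3. The phakinin gene bfsp2 (chromosome 2) had 182, 114 and 181 CPM in EWSR1-ERG pools and 119, 102 and 51.1 CPM in wild-type pools (0.81, SE 0.317, edgeR adjusted p = 0.137). EWSR1-ERG replicate 2 lay within the wild-type range there. The call was made without that pool (1.00, adjusted p = 0.0401) and by limma-voom (0.85, adjusted p = 0.0438). These were the only 2 of the 14 settings in which bfsp2 passed, and its adjusted p ran up to 0.418. The pool left out was the low one, so a shift upward was set in advance.

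The aquaporin gene mipa (chromosome 23) had 80.9, 60.5 and 78.6 CPM in EWSR1-ERG pools and 98.9, 98.7 and 61.0 CPM in wild-type pools (-0.23, SE 0.177, edgeR adjusted p = 0.427). Its paralog mipb, on the same chromosome, had 108, 83.3 and 119 CPM in EWSR1-ERG pools and 137, 131 and 81.3 CPM in wild-type pools (-0.17, SE 0.191, adjusted p = 0.614). Both had negative values where bfsp2 had a positive one, and without wild-type replicate 3 mipa passed (-0.42, adjusted p = 0.0487). Of the 14 settings mipa passed in that 1 only. The pool left out was the low one, so a shift downward was set in advance.

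Of the lim2 genes, lim2.3 (chromosome 15) had 32.8, 23.6 and 39.8 CPM in EWSR1-ERG pools and 26.2, 25.2 and 16.0 CPM in wild-type pools (0.52, SE 0.210, edgeR adjusted p = 0.118). For lim2.5 (chromosome 16) the values were 20.7, 14.9 and 23.3 CPM in EWSR1-ERG pools and 16.3, 15.9 and 10.8 CPM in wild-type pools (0.46, SE 0.194, adjusted p = 0.122). In both, EWSR1-ERG replicate 2 was below wild-type replicates 1 and 2, and both passed without it, at 0.69 (adjusted p = 0.0286) and 0.62 (adjusted p = 0.0444). Each passed in that 1 of the 14 settings only, and with the low pool left out a shift upward was set in advance. The values of lim2.4 (chromosome 19) were 99.996, 74.7 and 118 CPM in EWSR1-ERG pools and 101, 119 and 82.9 CPM in wild-type pools (-0.04, adjusted p = 0.899). Those of lim2.1 (chromosome 10) were 30.5, 24.0 and 34.3 CPM in EWSR1-ERG pools and 26.4, 30.4 and 23.7 CPM in wild-type pools (0.15, adjusted p = 0.544). The exception in its pool pattern was lim2.2 (chromosome 22), with 19, 7 and 26 counts in EWSR1-ERG pools and 2, 4 and 9 counts in wild-type pools. Wild-type replicate 3 was the highest of its group there, at 2.03 CPM, and the log2 fold change was 1.06 (SE 0.527, adjusted p = 0.198), or 1.89 without that pool (adjusted p = 0.0486). Of the 14 settings lim2.2 passed in that 1 only.

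Since the pools differed in total crystallin counts, the counts of each member were also divided by the summed counts of the 47 alpha, beta and gamma members in the same pool. For a crystallin this is its share of that sum. The sum does not hold the membrane and filament genes, so their values are ratios to it. Nor does it hold the crystallin genes that the deposited data list under other names. On this scale the 2 groups did not overlap in 24 of 47 members, 10 higher and 14 lower in EWSR1-ERG pools, against 12.1% of all tested genes divided by the same sum. Dividing by a lens total widens the spread of genes of other tissues, and ratios to a common sum are not independent, so this is a description without a test. The beta class made up 46.4%, 42.7% and 43.9% of crystallin counts in EWSR1-ERG pools and 43.3%, 42.8% and 41.2% in wild-type pools. For gamma M the shares were 47.8%, 51.6% and 50.05% in EWSR1-ERG pools and 50.5%, 51.5% and 52.8% in wild-type pools. Both classes overlapped between the groups. The alpha class did not, at 0.333%, 0.351% and 0.320% in EWSR1-ERG pools and 0.396%, 0.358% and 0.388% in wild-type pools. The ratio of the membrane and filament genes to the crystallin total did not overlap either, at 3.79%, 3.90% and 3.95% in EWSR1-ERG pools and 3.49%, 3.44% and 3.60% in wild-type pools. The means were 3.88% and 3.51%, and those of bfsp2 alone were 1.19% and 0.673%. Of the 8 genes of this class, 3 were higher and 2 lower without overlap, so the class did not move as one. Gamma N and S genes overlapped, at 5.54%, 5.34% and 5.69% in EWSR1-ERG pools and 5.73%, 5.35% and 5.62% in wild-type pools.

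Among the membrane and filament genes, the ratio to the crystallin total was higher for bfsp2, at 1.24%, 1.13% and 1.19985% in EWSR1-ERG pools and 0.789%, 0.672% and 0.558% in wild-type pools, and for lim2.3, at 0.223%, 0.233% and 0.264% in EWSR1-ERG pools and 0.175%, 0.165% and 0.175% in wild-type pools. That of mipa was lower, at 0.550%, 0.596% and 0.521% in EWSR1-ERG pools and 0.658%, 0.649% and 0.667% in wild-type pools. Of the crystallins, the beta gene crybb1l2 took 7.35%, 7.02% and 7.13% of the total in EWSR1-ERG pools, against 6.08%, 5.95% and 5.72% in wild-type pools. Lower shares were those of CRYGN (2 of 3), at 0.595%, 0.816% and 0.755% in EWSR1-ERG pools and 1.17%, 1.15% and 1.26% in wild-type pools, and of crygmx, at 0.871%, 0.754% and 0.788% in EWSR1-ERG pools and 1.12%, 1.06% and 1.15% in wild-type pools. By contrast, crybb1 overlapped, at 9.69%, 8.75% and 9.07% in EWSR1-ERG pools and 9.39%, 9.52% and 8.79% in wild-type pools. The log2 ratio of the group means on this scale ran from -0.73 for CRYGN (2 of 3) to 1.08 for crygs3.

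**Figure D4:**
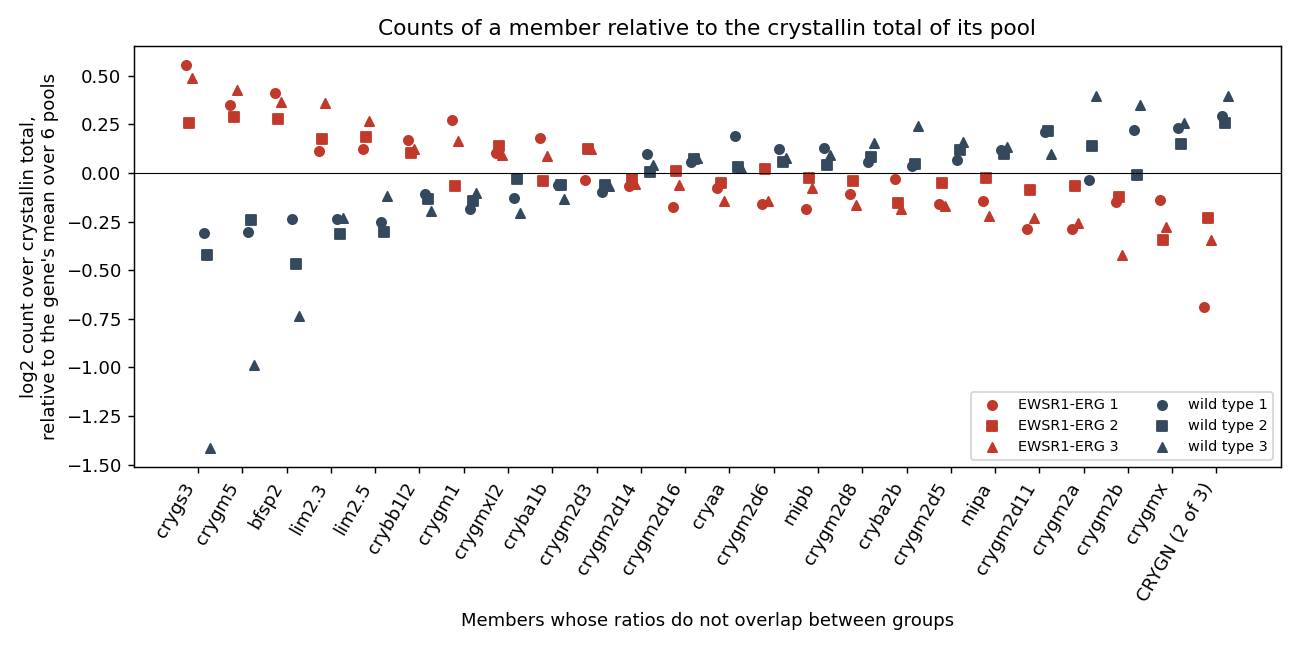
Counts over the crystallin total of the same pool on a log2 scale, relative to the gene's mean over 6 pools, for the 24 members whose EWSR1-ERG pools (red, left of each pair) do not overlap the wild-type pools (dark, right); marker shapes give the replicate. The genes were chosen for this separation and run from crygs3, at a log2 ratio of group means of 1.08, to CRYGN (2 of 3), at -0.73.

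Genes of the same families stood outside the symbol rule because the deposited data list them under other names. The gene name table gives BFSP1, the filensin partner of phakinin in the beaded filament, for CU929052.1. That gene had 157, 132 and 202 CPM in EWSR1-ERG pools and 134, 125 and 56.7 CPM in wild-type pools (0.63, SE 0.316, edgeR adjusted p = 0.237), so its value was positive and it dipped in the same pools as bfsp2. The genes si:ch211-212n6.16, si:ch211-212n6.18 and zgc:162402 are further crygm2d genes by that table. Their log2 fold changes were 0.0026, 0.17 and 0.05, and the lowest adjusted p was 0.606. Of the crystallin-related genes aim1a and aim1b, which encode larger proteins with the same fold and are not lens fibre genes by name, aim1a rose to 53.1, 46.9 and 45.5 CPM in EWSR1-ERG pools, against 34.7, 33.7 and 40.7 CPM in wild-type pools (0.42, SE 0.119, edgeR adjusted p = 0.0263). The value of aim1b was 0.08 (adjusted p = 0.793). In aim1a wild-type replicate 3 was the highest of its group.

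Taken singly, EWSR1-ERG replicate 2 was below 0.7 of the mean of the other pools of its group in 149 of the 8434 tested genes with a mean of 100 or more counts, 20 of them members. Wild-type replicate 3 was so in 301, 34 of them members. Few genes were low in both pools. Below 0.75 of the mean of the other pools of the group, in both EWSR1-ERG replicate 2 and wild-type replicate 3, were 53 of the 8434 genes (0.628%). Members made up 30 of the 53, which is 76.9% of the 39 members of that count. The other 23, named after their values were seen, included CU929052.1, the 3 further crygm2d genes and the lens genes lgsn, which encodes lengsin (ratios 0.704 and 0.562), dnase1l3l, listed as dnase1l1l by the table, a nuclease of lens organelle removal in zebrafish (0.657 and 0.478), and lctla (0.632 and 0.725), with the EWSR1-ERG ratio first. The last 3 belong to the 8 tested fibre genes listed apart from the members and described below. Of the rest of that list, epha2 and fabp11b had their group's highest value in wild-type replicate 3. Others, such as grifin and cx44.1, averaged fewer than 100 counts. The calpain gene capn3a (0.719 and 0.504) and the haem oxygenase gene hmox1 (0.733 and 0.703) were also among the 23. So were sparcl1 (0.738 and 0.732) and APOB (2 of 3) (0.671 and 0.622). Some heat shock chaperone genes were low in both pools too, namely hsp70l (0.735 and 0.576), DNAJA4 (0.656 and 0.745) and a pair of genes listed as mcm5 that the name table gives as hsp70.1 (0.673 and 0.652) and HSPA2 (0.675 and 0.459). Heat shock genes were not summed as a whole. The 10 small heat shock relatives described below summed to 271, 185 and 203 CPM in EWSR1-ERG pools 1, 2 and 3, lowest in replicate 2. In wild-type pools 1, 2 and 3 their sums were 190, 200 and 204 CPM, highest in replicate 3. The part of heat shock genes in the dip of the crystallins was not tested. The level of 0.75 was chosen after the values were seen, and both pools were picked for the low sum of the members themselves. The share of members among the 53 was thus largely set in advance.

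Other genes, listed as lens genes apart from the members, gave mixed results. Of 8 tested genes listed as fibre genes, 2 rose and 2 fell (median log2 fold change 0.28). The smallest p-values were those of fabp11b, a fatty acid binding protein gene, which fell to 2.60, 4.55 and 5.38 CPM in EWSR1-ERG pools, against 28.4, 28.1 and 36.1 CPM in wild-type pools (-2.81, SE 0.212, edgeR adjusted p = 7.43e-07), and of epha2, an ephrin receptor gene that rose by 0.89 (SE 0.218, adjusted p = 0.0143). In fabp11b wild-type replicate 3 was the highest of its group, so it did not share the dip of the members. Its place among the fibre genes rests on the list alone, and whole embryo RNA does not place its values in the lens. Also called were lctla (0.84, adjusted p = 0.0245) and grifin, a galectin-related lens gene (-0.87, adjusted p = 0.0255), both named after their values were seen.

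Of 13 lens regulators, all tested, 3 fell and 1 rose (median -0.36). The smallest p-values were those of six3a, a homeobox gene of the eye and forebrain (-0.86, SE 0.186, edgeR adjusted p = 0.00597), and mafba, a Maf transcription factor gene (0.49, SE 0.116, adjusted p = 0.0101). The other called regulators were pitx3 (-0.63, adjusted p = 0.0163) and mafa (-0.58, adjusted p = 0.0381). The lens epithelium regulator foxe3 had 2.45, 1.3999 and 1.84 CPM in EWSR1-ERG pools and 1.52, 1.36 and 2.94 CPM in wild-type pools (0.01, adjusted p = 0.989). Several of these regulators are also used in the retina or brain, so whole embryo RNA does not place their values in the lens. Among 10 genes with hspb symbols, taken by name alone as small heat shock relatives of alpha crystallins, 1 rose and 3 fell. The smallest p-values were those of hspb7 (-1.31, edgeR adjusted p = 0.00012) and hspb1 (0.89, adjusted p = 0.000271).

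In the neighbouring eye tissues, 19 of 20 photoreceptor genes and 5 of 5 pigment epithelium genes fell, with medians of -2.72 and -4.56. The smallest p-values were those of irbp (-3.12, edgeR adjusted p = 1.92e-09) and opn1sw1 (-3.13, adjusted p = 2.43e-09) in photoreceptors and of LRAT (-4.91, adjusted p = 1.18e-06) and rgra (-3.96, adjusted p = 3.2e-06) in the pigment epithelium. Of the 47 tested lens members 1 fell and 0 rose, with a median of 0.010. The lower end of the 95% interval was above -1 in 44 of them. The share of all tested genes that meet that bound is not given here. The exceptions were crygmxl1, CRYGN (2 of 3) and crygs2, whose intervals reached -1.46, -1.08 and -1.04. Of 10 skeletal muscle genes 1 rose and 1 fell, mybpc1 (-2.06, adjusted p = 5.91e-07) and ckma (0.47, adjusted p = 0.0364) having the smallest p-values.

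The 8 members that the filter left untested had 11 to 71 counts in total. Just inside the minimum stood crybb2 and crygm7, each with 11 counts, 10 of those of crygm7 in EWSR1-ERG replicate 3. Just outside it stood crygs1 with 9 counts. With no filter on low counts none of the 8 passed, the lowest adjusted p being that of crygm2e (0.0509), with 5, 0 and 14 counts in EWSR1-ERG pools and 9, 16 and 8 counts in wild-type pools.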

How the data were processed

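Per the submitters' processing notes, Bowtie2, SAMtools, DESeq and the Zv9 build were used. The sources used here do not give their roles, the annotation, the counting tool or the strand setting. The deposited values are estimated counts per Ensembl gene: every gene value was whole, and the size factor on the last line was not applied. The 2 lines per table without a gene were left out. Genes passed edgeR's filterByExpr at a minimum count of 10 and total of 15. They were tested with edgeR 4.0.16 (TMM, robust quasi-likelihood F test, no covariate, Benjamini-Hochberg). The SE is the absolute log2 fold change over the square root of F, and 95% intervals use the test's degrees of freedom. Alternatives included DESeq2 1.42.0 and limma 3.58.1. The scripts were tested on simulated data. Members, lists and the rule for named genes were chosen with earlier results of these data known. That rule took, for each class, the 3 members with most CPM. It added all membrane and filament genes, the 3 smallest p-values, members called in any setting and those nearest the 10-count minimum. From members with a mean of 100 or more counts it took the steadiest and most variable. No protein or transcript lengths were used, so levels per length, planned at first, are not given.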

Additional observations from a re-analysis of the deposited data

How the results depend on the processing

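Other normalizations (DESeq2 size factors, upper quartile, TMM without the members) changed no call among the members and no median or class total beyond the spread between pools. A filter of 1 CPM in 3 libraries changed no call among the members and did not move their median log2 fold change beyond that spread. Class totals were not computed under that filter. Members called higher numbered 0, against 1 by DESeq2, 1 by limma-voom and 1 when low counts were not filtered; leaving out 1 library gave 0 to 5, the 5 without EWSR1-ERG replicate 2 (crygs3, bfsp2, lim2.3, lim2.5 and crygm5). Members called lower numbered 1, and 0 to 4 with 1 library left out, the 4 without wild-type replicate 3 (CRYGN (2 of 3), mipa, crygmx and crygm2d11), where lim2.2 alone was called higher. The median log2 fold change of members was 0.154 without EWSR1-ERG replicate 2 and -0.175 without wild-type replicate 3, so these calls came with a shift of the members together. Counts over all genes with 1 library left out were 646 to 1334 higher and 981 to 1668 lower. The median CV of members ran from 5.45% to 26.3% in EWSR1-ERG pools and from 3.14% to 33.4% in wild-type pools. Values near 0 changed sign: crybb1 stood at -0.00015 with upper-quartile factors, and with 1 library left out the ranges were -0.21 to 0.20 for crybb1, -0.026 to 0.39 for cryba1b, -0.15 to 0.28 for crybb1l1, -0.12 to 0.21 for crygm2d10, -0.17 to 0.17 for crygm2d13, -0.032 to 0.31 for crygm2d3, -0.038 to 0.36 for crygn2, -0.21 to 0.11 for lim2.4 and -0.38 to 0.00081 for cryaa. The cause of these changes was not tested. With the replicate number as a block, 0 members were called higher and 1 lower (CRYGN (2 of 3), adjusted p = 0.0309), and 1066 genes higher and 1482 lower in all; deviations of same-numbered pools correlated at -0.139, 0.0966 and -0.0400, so the numbers were not taken to pair the pools. Members at few counts, such as crygs2 and lim2.2, are limited by depth.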
